A study of Gallus gallus with 18 samples.

Results

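The genes PPARGC1A, PPARA, ACSL1, CPT1A, ECI1 and ECI2, which serve fatty acid oxidation and its control, were followed in heated and unheated chickens. Every probe set annotated to only 1 of these 6 symbols was taken, which gave 12 probe sets of the 38439 on the array that are no controls, and 6 of 13009 genes. CPT1A and PPARA had 3 probe sets each, ACSL1 and PPARGC1A had 2 each, and ECI1 and ECI2 had 1 each. Probe sets of a gene are told apart by their mean over the 18 arrays, as brighter or dimmer, and their identifiers stand in the plot of intensities by array. The study held chickens at 28 ± 1 °C for 8 days and then compared birds kept at 40 ± 1 °C for 3 h (labelled T3) with birds at 28 ± 1 °C (labelled T0). Each condition was measured in liver, leg muscle and brain (labelled cerebral cortex) on 3 Affymetrix arrays per group, 18 arrays in all. The labels give 24 birds, 12 male and 12 female, and do not say which birds or sex an array holds or whether RNA was pooled, and they name no breed. Time of sampling changed together with heat, so the 2 cannot be told apart. The labels call the arrays biological replicates, and p-values measure the spread between these arrays only.

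Long-chain fatty acids are activated to acyl-CoA by synthetases such as ACSL1 before they are used. CPT1A, the liver form of carnitine palmitoyltransferase 1, makes the acylcarnitines that enter mitochondria and is the main control point of beta-oxidation. ECI1 in mitochondria and ECI2, found in mammals in peroxisomes and mitochondria, shift double bonds so that unsaturated fatty acids can be oxidised. PPARA is the nuclear receptor that turns on many genes of fatty acid oxidation in the fasting liver, and PPARGC1A (PGC-1 alpha) is a coactivator of PPARA and of other regulators of mitochondria and of hepatic glucose production.

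Array medians lay between 79.7 and 99.3 intensity units, and arrays of a group correlated at 0.976 to 0.993. The highest of 6 bacterial trp control probe sets on an array, a measure of background, read 65.5 to 97.6 in liver, 41.3 to 60.6 in muscle and 53.0 to 65.0 in brain. A probe set was tested in a tissue when its mean there was at least that of the median probe set. Of the 12 probe sets, 10 were tested in liver, 8 in muscle and 3 in brain. A lower level in these tissue samples can mean fewer cells of a type or less RNA per cell, which cannot be told apart here. Markers of the labelled tissues were present, and 16 of 17 listed hepatocyte markers were measured. As a share of their level in control liver, the median over these markers was 29.6% on brain heat 1, 1.50% and 2.79% on the other brain heat arrays and 0.82% to 1.05% on the brain controls. On muscle heat 3 the share was 30.7%, against 6.40% and 7.69% on the other muscle heat arrays and 1.57% to 7.42% on the muscle controls. Both arrays stand apart in this measure, and the heat differences of the tested probe sets of the 6 genes in brain and muscle are also given without them.

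**Figure D1:**
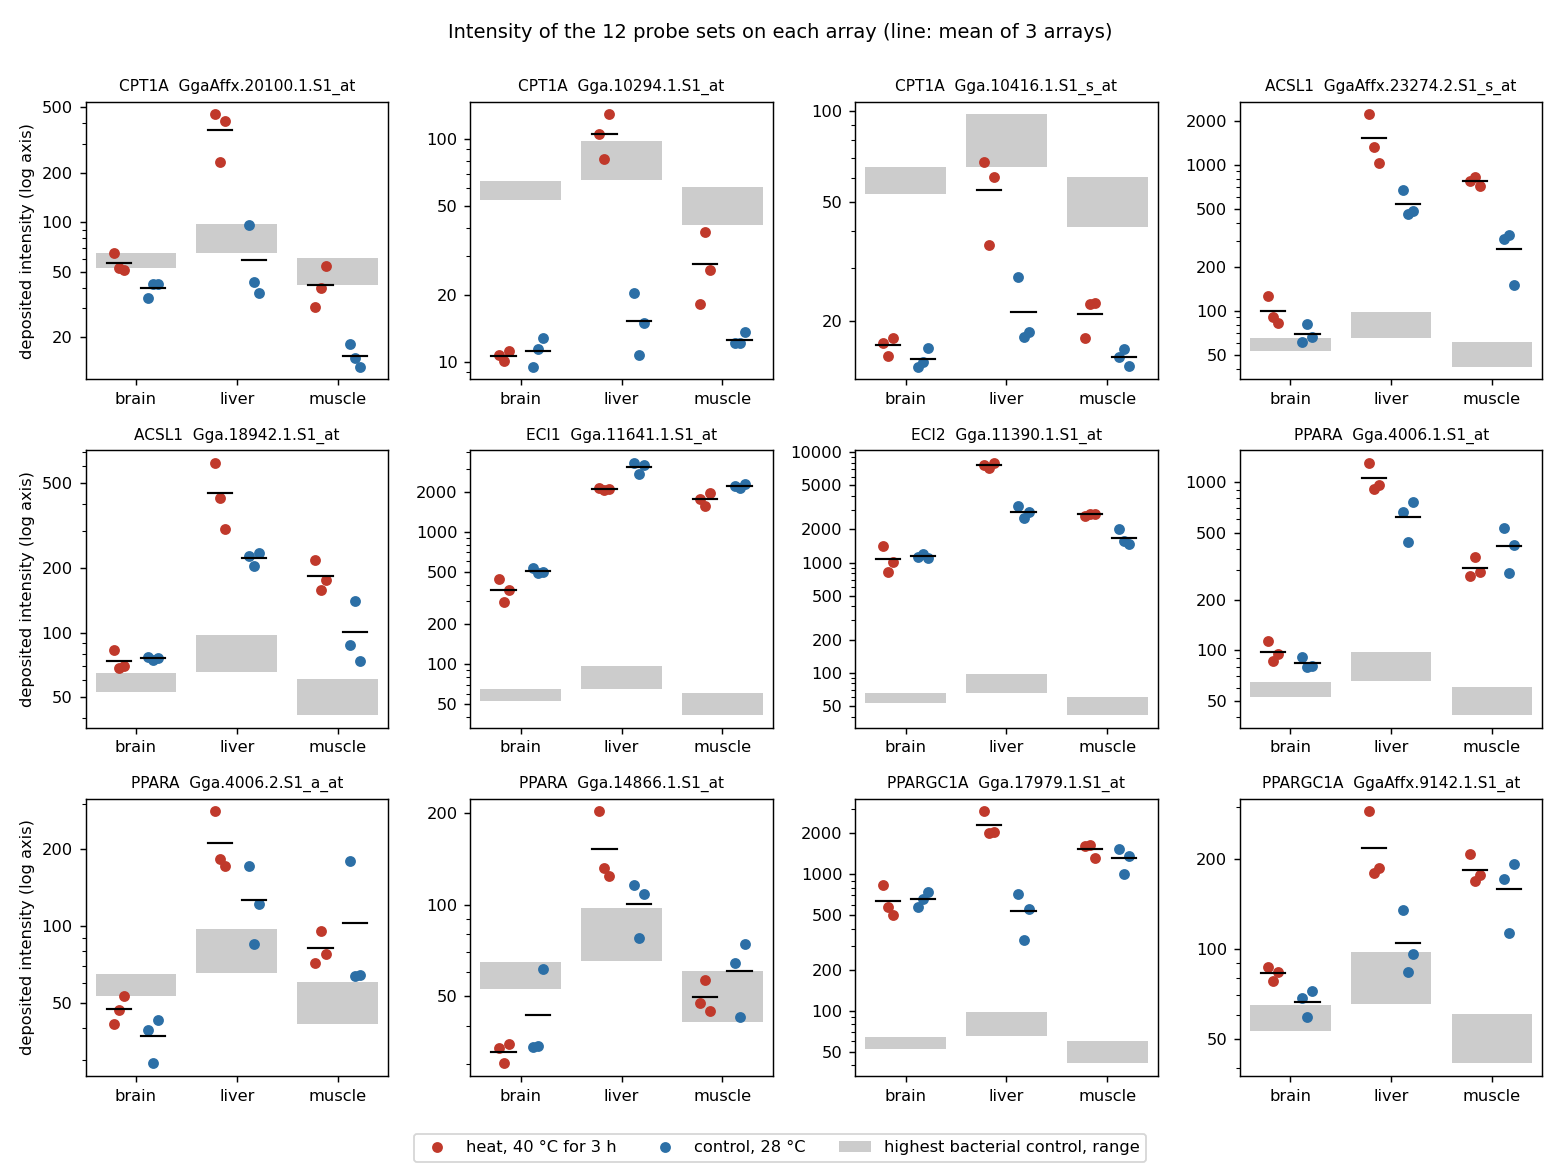
Deposited intensity (log axis) of each of the 12 probe sets on every array, with heat (red) left of control (blue) in brain, liver and muscle, black lines for group means of 3 arrays, and grey bands for the range over arrays of the highest bacterial control probe set. Panels of a gene run from its brightest to its dimmest probe set. ECI2 reads 7194 to 8021 on the liver heat arrays and 2534 to 3264 on the liver controls, and 2 of the 3 CPT1A probe sets lie in or below the grey band in brain and muscle on every array.

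In liver, 4 of the 6 genes rose with heat (CPT1A, PPARGC1A, ECI2 and ACSL1), ECI1 fell, and PPARA did not pass the test. By probe set, 6 of the 10 tested rose, 1 fell and 3 were not called at an adjusted p under 0.05 in limma. Over all 19220 probe sets tested in liver, 13.1% were called, 7.01% higher and 6.11% lower with heat. On 9 of the 10, no heat array overlapped the controls after scaling (8 above and 1 below), as on 37.3% of all tested. The median difference was 0.88 on the log2 scale over the 10 probe sets and -0.029 over all tested. CPT1A passed the filter only through the heat arrays, and of the other 9 probe sets 5 rose, 1 fell and 3 were not called, with a median of 0.84. The 6 genes were chosen with earlier results of these data known. Their counts and medians beside those of all probe sets only describe the chosen genes, in every tissue. Here a difference is heat minus control of log2(intensity + 16), and a fold is taken from that scale, so it understates changes of dim probe sets. Array values and group means are deposited intensities, while liver differences were taken after quantile normalization of the liver arrays.

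PPARGC1A, the coactivator, has 2 probe sets that both rose in liver. The brighter one read 2892, 2003 and 2037 on the heat arrays, against 723, 329.9 and 553 on the controls. The lowest heat array stood far above the highest control array. The difference was 1.99 (SE 0.28, adjusted p = 0.0077), a 3.97-fold level with heat. The dimmer one read 290.2, 180.5 and 187 on the heat arrays, against 136, 83.5 and 96.4 on the controls. Its groups did not overlap either, with a difference of 0.92 (SE 0.21, adjusted p = 0.026), but the call held in only 2 of the 6 fits that left out 1 array (adjusted p 0.018 to 0.087).

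PPARA, the nuclear receptor, had 3 probe sets that were all higher on average in heated liver and did not pass the test. The brightest read 1296, 911 and 953 on the heat arrays, against 659, 437 and 755 on the controls. These groups did not overlap, and the difference was 0.64 (SE 0.22, 95% interval 0.13 to 1.14, adjusted p = 0.089). The second read 281, 183 and 172 on the heat arrays, against 171, 85.3 and 122 on the controls (difference 0.66, SE 0.24, adjusted p = 0.099). The dimmest read 203, 132 and 124 on the heat arrays, against 116, 77.9 and 108 on the controls (difference 0.49, SE 0.19, adjusted p = 0.12). For PPARA the intervals before adjustment exclude 0, while 32.5% of all liver probe sets had an unadjusted p under 0.05. With the deposited scaling in place of quantile normalization, the brightest one passed (0.77, adjusted p = 0.049). It also passed in 1 model over 18 arrays (adjusted p = 0.046) and with array numbers as a block (adjusted p = 0.047). These are 3 of the 8 alternatives that kept every array. Of the same 8, the second probe set passed only with the block (adjusted p = 0.026), and the dimmest never passed.

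ACSL1, the long-chain acyl-CoA synthetase, rose in liver on both probe sets. The brighter one, whose identifier ends in a suffix for probes that can match more than 1 transcript, read 2203, 1317 and 1023 on the heat arrays, against 668, 460.4 and 479.8 on the controls. The dimmer one read 621, 424 and 307 on the heat arrays, against 227, 205 and 236 on the controls. The groups were separate on both probe sets, and heat 1 was the highest array on each. The difference was 1.28 on the brighter one (SE 0.26, adjusted p = 0.020). On the dimmer one it was 0.84 (SE 0.21, adjusted p = 0.035). Left-out arrays ended these calls often: the first held in 3 of 6 such fits and the second in 1 of 6.

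CPT1A rose in liver on the 1 probe set that was tested, its brightest. It read 453, 234 and 412 on the heat arrays, against 95.9, 43.5 and 37.3 on the controls. Control 1 was above the other controls and still well below the lowest heat array. The group means were 366 ± 117 with heat and 58.9 ± 32.2 in the controls (SD, n = 3 arrays each), and the control mean lies under the filter. On 2 of the 3 control arrays this probe set was no brighter than the highest bacterial control. With that control as the lowest measurable level, CPT1A was at least 4.64-fold higher with heat. The fitted difference was 2.35 (SE 0.31, adjusted p = 0.0067).

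The other CPT1A probe sets were dimmer and were not tested in liver. The second read 105, 81.3 and 129 on the heat arrays, against 20.3, 10.78 and 14.9 on the controls. All 3 control arrays lay below the highest bacterial control, and so did heat 2 (81.27, against 81.84). With the control arrays set to that limit and heat 2 taken as read, the heat level was at least 1.49-fold higher. This bound thus rests in part on a heat array at background. The dimmest read 67.9, 35.9 and 60.4 on the heat arrays, against 28.1, 17.7 and 18.4 on the controls, none of them above the highest bacterial control. On both, every heat array was above every control array, and no fold is given for the last. As the last was at background on every array, its order is not read as a rise.

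The isomerases moved in opposite directions in liver. ECI2 read 7724, 7194 and 8021 on the heat arrays, against 3264, 2534 and 2877 on the controls. Spread within each group was small beside the gap, and the difference of 1.31 (SE 0.11, adjusted p = 0.0024, 2.47-fold) ranked 12 by p among all 19220 probe sets. ECI1 read 2148, 2091 and 2108 on the heat arrays, against 3332, 2747 and 3234 on the controls. All 3 heat arrays were below every control, and ECI1 fell by 0.70 (SE 0.12, adjusted p = 0.013). Its level was 1.63-fold lower with heat.

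**Figure D2:**
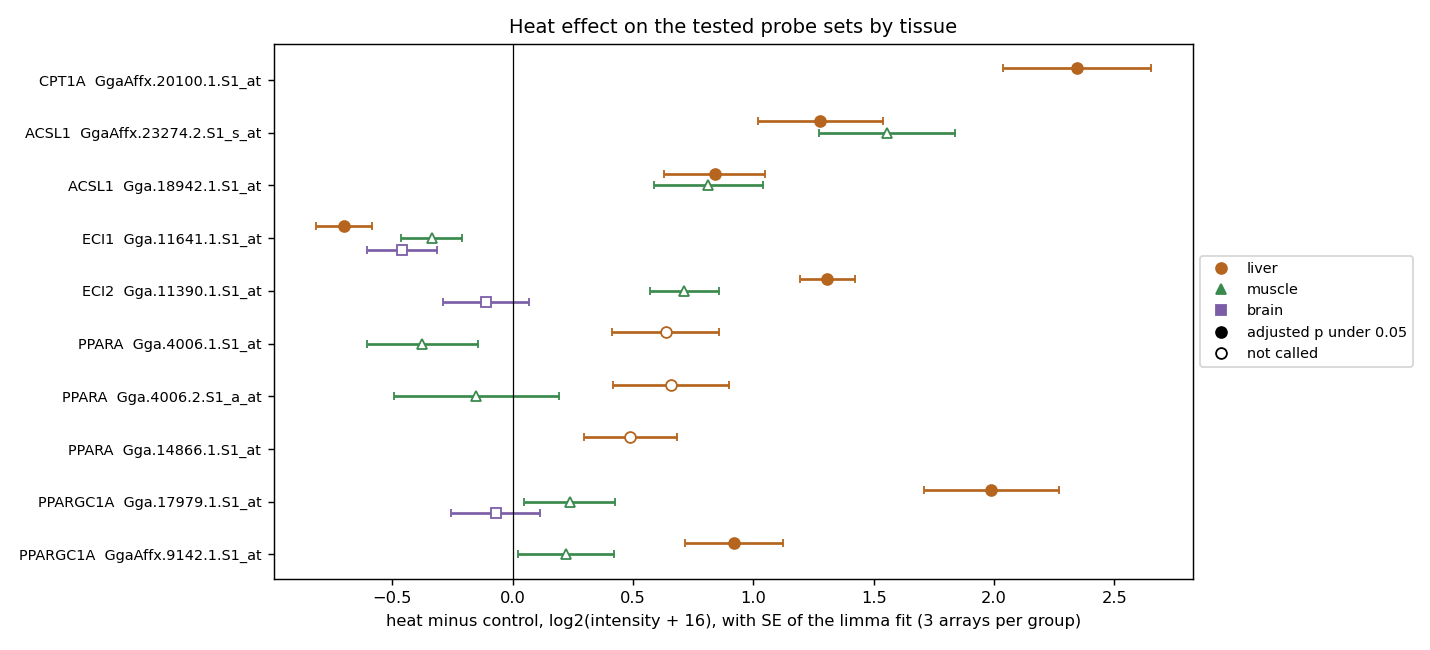
Heat minus control on the log2(intensity + 16) scale for each tested probe set in liver (circles), muscle (triangles) and brain (squares), with the SE of the limma fit on 3 arrays per group and filled symbols for an adjusted p under 0.05. The 7 filled symbols are all from liver, and ACSL1 lies at 1.28 and 0.84 in liver and at 1.56 and 0.81 in muscle, where it was not called.

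The count of 7 called probe sets in liver depended on single arrays. It was 4 without liver control 2, 3 without liver control 3 and 4 without liver heat 1, and 6 or 7 without each of the other arrays. The brightest CPT1A, the brighter PPARGC1A and the ECI2 probe sets were called in all 6 of these fits, with differences of 2.14 to 2.67, 1.66 to 2.26 and 1.22 to 1.40. All these fits kept the filter of all arrays, which CPT1A passed only through the heat arrays. ECI1 was called in 5 of 6 and missed without liver control 3 (adjusted p = 0.058). Liver heat 1 was the highest heat array on 8 of the 10 probe sets after scaling, and liver control 2 the lowest control array on 9.

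**Figure D3:**
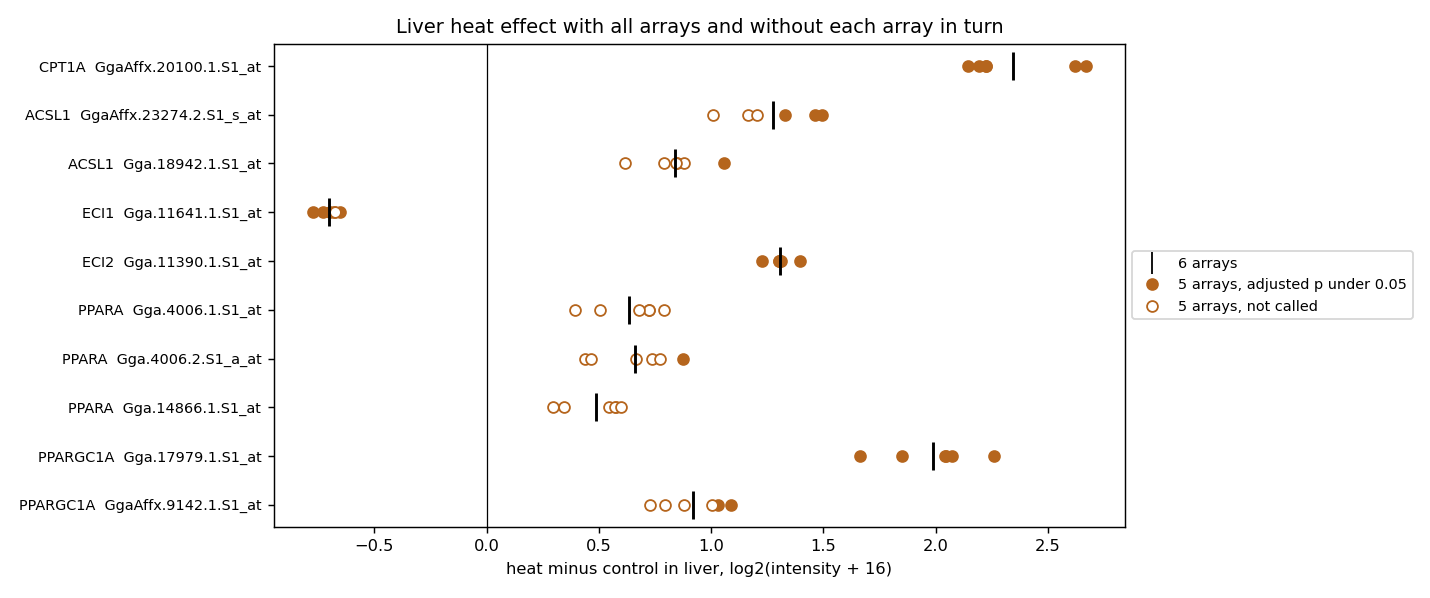
Heat minus control in liver on the log2(intensity + 16) scale for the 10 tested probe sets, with all 6 arrays (black line) and with each array left out in turn (circles, filled for an adjusted p under 0.05). CPT1A, the brighter PPARGC1A probe set and ECI2 keep 6 filled circles each, and the dimmer ACSL1 probe set keeps 1. CPT1A passed the filter, kept from all arrays, only through the heat arrays.

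Levels of some marker lists also differed between the liver groups. All 8 listed endothelial markers were measured, and their summed intensity was 5963 to 7985 on the heat arrays and 3721 to 4684 on the controls. The endothelial cadherin CDH5 read 3373, 4381 and 3750 on the heat arrays, against 1702, 2718 and 2713 on the controls. VWF was also separate, at 595.3 to 786.4 with heat and 397.3 to 492.5 in the controls. PECAM1 overlapped between the groups (698.9 to 1394, against 382.3 to 782.2), and so did TEK (393.1 to 721.2, against 300.2 to 453.1). The 7 measured adipocyte markers summed to 5764 to 7672 with heat and 3731 to 5242 in the controls. That list holds PCK1 and CIDEA, which liver cells also express and which were higher on every heat array. PCK1 read 3398.5, 1533 and 3007 on the heat arrays, against 409.8, 8.09 and 53.1 on the controls. CIDEA read 1229, 1004 and 830 on the heat arrays, against 344, 213 and 278 on the controls. PLIN1, also of the list, overlapped between the groups (198, 215 and 251, against 215, 215 and 205). The fat hormone ADIPOQ stayed near background at 57.2, 61.6 and 50.2 on the heat arrays, against 59.2, 76.8 and 61.3 on the controls. FABP4, another fat cell gene of the list, read 54.8, 271 and 54.6 on the heat arrays, against 43.7, 60.2 and 47.1 on the controls. It was high on liver heat 2 alone. Hepatocyte markers stood at 93.3% to 109% of the control mean on the heat arrays and 91.7% to 105% on the controls. The 3' over 5' probe intensity of actin, a measure of RNA integrity, was 2.77, 2.17 and 1.52 on the heat arrays, against 1.42, 1.64 and 2.21 on the controls. The groups overlapped, and liver heat 1 was the highest. The parts of endothelial cells, fat cells and RNA integrity in the liver results were not tested.

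In leg muscle, none of the 8 tested probe sets was called, in a tissue where 0.0104% of all 19220 probe sets (2 in number) were. At an unadjusted p under 0.05, 4 of the 8 passed, as did 3081 of all 19220. Heat arrays and controls did not overlap on 4 of the 8 (3 above and 1 below), as on 21.9% of all tested. The median difference was 0.23 over the 8 and 0.014 over all tested.

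ACSL1 had the largest difference among the muscle probe sets. The brighter one read 775, 816 and 710.1 on the muscle heat arrays, against 311, 332 and 149 on the controls, with no overlap. The difference was 1.56 (SE 0.28, adjusted p = 0.097), and 1.61 without muscle heat 3 (adjusted p = 0.19). The dimmer one read 219, 158 and 176 on the heat arrays, against 87.5, 141 and 73.8 on the controls (difference 0.81, SE 0.23, adjusted p = 0.17, and 0.84 without muscle heat 3, adjusted p = 0.30). Both ACSL1 probe sets thus lay higher on every muscle heat array than on any muscle control.

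The isomerases pointed the same ways in muscle as in liver without passing the test. ECI2 read 2665, 2762 and 2769 on the muscle heat arrays, against 1997, 1556 and 1470.4 on the controls. The groups did not overlap, and the difference was 0.71 (SE 0.14, adjusted p = 0.12). Muscle heat 3, the array with the high hepatocyte markers, was level with the other heat arrays, and without it the difference was 0.70 (adjusted p = 0.23). ECI1 read 1774, 1567 and 1968 on the heat arrays, against 2231, 2167 and 2294 on the controls (difference -0.34, SE 0.13, adjusted p = 0.27, and -0.42 without muscle heat 3, adjusted p = 0.33). Every ECI1 heat array was below every control.

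PPARGC1A was bright in muscle on both sides of the comparison. The brighter probe set read 1612, 1649 and 1318 on the heat arrays, against 1537, 1011 and 1372 on the controls. The groups overlapped, and the difference was 0.24 (SE 0.19, 95% interval -0.20 to 0.68, adjusted p = 0.58). The dimmer one overlapped too (difference 0.22, SE 0.20, adjusted p = 0.63). Without muscle heat 3 these differences were 0.34 (adjusted p = 0.55) and 0.25 (adjusted p = 0.71). PPARA also overlapped on both tested probe sets, with differences of -0.38 (SE 0.23, adjusted p = 0.47) and -0.15 (SE 0.34, adjusted p = 0.87). Without muscle heat 3 they were -0.34 (adjusted p = 0.65) and -0.13 (adjusted p = 0.93).

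CPT1A was at background in muscle. The brightest probe set read 30.5, 40.0 and 54.5 on the muscle heat arrays, against 18.1, 14.9 and 13.2 on the controls. On all 3 CPT1A probe sets the heat arrays were above the controls, and on none was any muscle array above its highest bacterial control, so no fold is given. How often probe sets this dim show such an order was not counted, and it is not read as a rise of CPT1A in muscle. Muscle arrays also carried signal of the fat cell genes ADIPOQ, at 2669, 2324 and 1801 on the heat arrays and 2975, 3003 and 3153 on the controls, and FABP4, at 809, 1913 and 338 on the heat arrays and 398, 6518 and 226 on the controls. The part of fat cells in the muscle values was not tested. When 1 model was fitted to all 18 arrays, ACSL1 and ECI2 were called in muscle (adjusted p = 0.0027, 0.021 and 0.011), in a fit that called 1740 muscle probe sets in all.

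In brain, none of the 3 tested probe sets was called, against 11.9% of all 19220. On 1 of the 3 the groups did not overlap, as on 36.6% of all tested. ECI1 came nearest, with 444, 297 and 362 on the brain heat arrays against 532, 486 and 497 on the controls. Its groups did not overlap, and the difference was -0.46 (SE 0.15, adjusted p = 0.072). Without brain heat 1, the array high in hepatocyte markers, ECI1 was called (-0.60, adjusted p = 0.0094), and it was also called in 1 model over 18 arrays (adjusted p = 0.041).

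ECI2 and PPARGC1A overlapped between the brain groups. ECI2 read 1418, 829 and 1006 on the brain heat arrays, against 1126, 1203 and 1101 on the controls (difference -0.11, SE 0.18, 95% interval -0.52 to 0.30, adjusted p = 0.71). The brighter PPARGC1A probe set read 829, 572 and 506 on the heat arrays, against 579.6, 654 and 737 on the controls (difference -0.07, SE 0.18, 95% interval -0.49 to 0.35, adjusted p = 0.82). On both, brain heat 1 was the highest of the 6 arrays, and without it the differences were -0.32 (adjusted p = 0.085) and -0.27 (adjusted p = 0.17).

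The other 9 probe sets were too dim in brain to be tested. The brighter ACSL1 probe set read 125, 89.8 and 82.7 on the brain heat arrays, against 61.0, 81.1 and 65.7 on the controls. The dimmer PPARGC1A probe set read 87.3, 78.2 and 83.6 on the heat arrays, against 68.4, 59.0 and 72.2 on the controls. Neither pair of groups overlapped. The brightest CPT1A probe set read 65.2, 52.3 and 51.2 on the heat arrays, against 34.8, 41.9 and 42.4 on the controls, and only brain heat 1 was above its highest bacterial control. The brightest PPARA probe set read 113, 86.0 and 94.6 on the heat arrays, against 91.7, 80.2 and 80.9 on the controls, with overlap. The remaining 5 probe sets read between 9.51 and 83.3 on all brain arrays.

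The heat difference was larger in liver than in brain for ECI2 and the brighter PPARGC1A probe set. In a model with 1 spread estimate over 18 arrays, 3 of the 10 probe sets tested were called, all of them higher in liver, against 1.73% of the 23118 tested called either way and 0.796% called higher. For the brighter PPARGC1A probe set the difference of differences was 2.06 (SE 0.36, adjusted p = 0.010). For ECI2 it was 1.42 (SE 0.22, adjusted p = 0.0059). The third call was the brightest CPT1A probe set (adjusted p = 0.011). It entered through heated liver and was at background on 5 of 6 brain arrays, so its brain heat difference is not resolved and no size is given. The other 7 were not called, among them ECI1 at -0.24 (95% interval -0.63 to 0.14, adjusted p = 0.58). The dimmer PPARGC1A probe set stood at 0.65 (95% interval 0.088 to 1.22, adjusted p = 0.25). ACSL1 stood at 0.85 (95% interval 0.045 to 1.66, adjusted p = 0.30) on the brighter probe set and at 0.88 (0.27 to 1.48, adjusted p = 0.14) on the dimmer one. Both ACSL1 probe sets and the dimmer PPARGC1A probe set passed the filter in liver but not in brain. On every brain array they were above the highest bacterial control. The calls of the brighter PPARGC1A probe set and of ECI2 held when each of the 18 arrays was left out in turn. Without brain heat 1 the values were 2.26 for PPARGC1A and 1.62 for ECI2. The CPT1A call also stayed, but these fits kept the filter of all arrays, and its brain heat difference remains unresolved.

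Against muscle, the liver heat difference was larger for 1 of the 2 PPARGC1A probe sets. The brighter probe set was the 1 call of 10 (1.75, SE 0.36, adjusted p = 0.029), where 0.964% of the 21690 probe sets tested were called either way and 0.484% higher. That call was lost in 6 of 18 fits that left out 1 array (without liver control 3, liver heat 1, or muscle control 1, control 3, heat 2 or heat 3; adjusted p 0.050 to 0.073), and with only the 2 tissues in the model (adjusted p = 0.11). The dimmer PPARGC1A probe set had 0.70 (SE 0.27, adjusted p = 0.29). CPT1A is given no size here, since every muscle array was at background. ECI2 stood at 0.59 (SE 0.22, adjusted p = 0.27). For ACSL1 the liver and muscle heat differences were -0.28 (95% interval -1.09 to 0.53, adjusted p = 0.83) and 0.03 (95% interval -0.58 to 0.64, adjusted p = 0.98) apart, intervals that still allow differences of over 1 and over 0.6 on the log2 scale.

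Between muscle and brain none of 8 probe sets was called, against 0.354% of the 22854 tested. ECI2 had a difference of 0.82 (SE 0.22, adjusted p = 0.14), and it was called without brain heat 1 (1.03, adjusted p = 0.017). ACSL1 had 1.13 (adjusted p = 0.24, 95% interval 0.32 to 1.94) on the brighter and 0.85 (adjusted p = 0.24, 95% interval 0.24 to 1.46) on the dimmer probe set. At an unadjusted p under 0.05, 7 of 10 probe sets passed between liver and brain (15.2% of all tested), 6 of 10 between liver and muscle (12.3% of all) and 3 of 8 between muscle and brain (11.5% of all). These 3 contrasts share their arrays. Of the 7, all but ECI2 and the brighter PPARGC1A probe set entered through liver alone. Of the 6, the brightest CPT1A and the dimmest PPARA probe sets did. In muscle minus brain, both ACSL1 probe sets entered through muscle alone. The CPT1A probe set was at background on most brain arrays and every muscle array, so its passes are not read.

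Without heat, ECI1, ECI2, the brightest PPARA and the brighter ACSL1 probe set were highest in liver, then in muscle, then in brain, while PPARGC1A was highest in muscle. Levels between tissues rest on the deposited scaling of brain and muscle and the quantile scaling of liver, and most probe sets differed between tissues. Between unheated liver and brain, 8 of 10 probe sets were higher in liver, against 72.7% of all tested called either way and 33.3% called higher. Only ECI1, ECI2 and the brighter PPARGC1A probe set also passed the filter in brain, and of these ECI1 and ECI2 were higher in liver. The rest entered through liver alone, so the count of 8 is set in part by the filter. Between unheated liver and muscle, 7 were higher and 2 lower in liver, against 62.0% called in all, 33.5% higher and 28.5% lower. The 7 include the brightest CPT1A probe set, which passed the filter only through heated liver. It was at background on every muscle control and on 2 of the 3 liver controls, so that call is not read as a tissue difference. The dimmest PPARA probe set, also among the 7, entered through liver alone. Between unheated muscle and brain, 7 of 8 were higher in muscle, against 70.2% called either way and 29.6% higher. ECI1, ECI2 and the brighter PPARGC1A probe set passed the filter in both tissues, and each was higher in muscle. The rest entered through muscle alone, and of these the second PPARA probe set was at background on every brain array.

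ECI1 in the controls averaged 3104 ± 313 in liver, 2231 ± 63.7 in muscle and 505 ± 23.8 in brain (SD, n = 3 arrays each). Its log2 difference was 2.66 for liver minus brain (adjusted p = 6.79e-12) and 0.55 for liver minus muscle (adjusted p = 0.0014), the last not called when all 18 arrays were quantile normalized together (0.24, adjusted p = 0.12). ECI2 averaged 2892 ± 365 in liver, 1675 ± 283 in muscle and 1143 ± 53.2 in brain. The ECI2 differences were 1.40 for liver minus brain and 0.86 for liver minus muscle, both called, and muscle was above brain by 0.53 (adjusted p = 0.0063).

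The brightest PPARA probe set averaged 617 ± 163 in unheated liver, 414 ± 121 in muscle and 84.3 ± 6.41 in brain. Liver was above muscle by 0.63 (adjusted p = 0.017), a call lost under joint quantile normalization (0.49, adjusted p = 0.055), and muscle was above brain by 2.06 (adjusted p = 1.57e-07). The second PPARA probe set was not called between liver and muscle (0.37, SE 0.29, adjusted p = 0.29), and the dimmest was not tested between muscle and brain. The brighter ACSL1 probe set averaged 536 ± 115 in liver, 264 ± 99.98 in muscle and 69.3 ± 10.52 in brain, and each of these steps was called. Its other probe set did not differ beyond the spread between muscle and brain (0.30, SE 0.20, adjusted p = 0.20).

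The brighter PPARGC1A probe set averaged 535 ± 197 in unheated liver, 1307 ± 269 in muscle and 657 ± 78.5 in brain. Liver was 2.37-fold below muscle (difference -1.24, SE 0.25, adjusted p = 0.00043) and not distinguishable from brain (-0.28, SE 0.25, adjusted p = 0.32). On the dimmer probe set liver was above brain (0.54, SE 0.19, adjusted p = 0.017) and below muscle (-0.52, SE 0.19, adjusted p = 0.025). The call against muscle was lost in a limma model of the 2 tissues (adjusted p = 0.057) and in 4 of 18 fits that left out 1 array. The call against brain was lost in 2 of 18 such fits. In heated liver the brighter probe set averaged 2311 ± 504, above the mean of either muscle group. The brightest CPT1A probe set averaged 58.9 ± 32.2 in unheated liver, 15.4 ± 2.49 in muscle and 39.7 ± 4.26 in brain, with all but 1 of these arrays at background.

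Other genes of the pathway were taken from 6 lists of 122 genes, of which 102 had a probe set. In liver 92 were tested, and 13 rose, 7 fell and 72 were not called, against the 13.1% called over all probe sets. The pathway count takes the brightest tested probe set of each gene, while the share over all counts every tested probe set. At an unadjusted p under 0.05, 33 of the 92 (35.9%) passed, against 32.5% of all. In 1 model over 18 arrays 12 were called higher and 12 lower. The median difference over the 92 was 0.0065, against -0.029 over all. The count was 6 without liver control 2, 8 without control 3, 6 without heat 1 and 9 without heat 3.

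Mitochondrial beta-oxidation had 15 tested genes in liver, of which 2 rose and none fell, and the other 13 were not called. HADHB, the thiolase subunit of the trifunctional protein, averaged 5805 ± 912 in heated liver and 3025 ± 273 in control liver (SD, n = 3 each; difference 0.81, SE 0.12, adjusted p = 0.0100). ACAD11, an acyl-CoA dehydrogenase of long-chain substrates, averaged 3312 ± 679 with heat and 1679 ± 277 in controls (difference 0.81, adjusted p = 0.022). The median over the list was 0.0018.

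Peroxisomal oxidation had 3 rises among 15 tested genes and no fall, with a median of 0.19. CROT, which makes octanoylcarnitine from the shortened peroxisomal chains, averaged 4608 ± 631 in heated liver and 1995 ± 152 in control liver (difference 1.07, SE 0.13, adjusted p = 0.0053). ACAA1, the peroxisomal thiolase, and CRAT, carnitine acetyltransferase, each had a difference of 0.81 (adjusted p = 0.023 and 0.043). CRAT was not called without the filter on low values (adjusted p = 0.057).

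Among 11 acyl-CoA synthetases and thioesterases in liver, ACSL5 rose and 2 genes fell. ACSL5, a long-chain synthetase like ACSL1, averaged 4489 ± 527 with heat and 2596 ± 227 in controls (difference 0.65, adjusted p = 0.016), and was not called in 1 model over 18 arrays (adjusted p = 0.27). ACSBG2, of the bubblegum synthetase family, averaged 2317 ± 478 with heat and 5365 ± 285 in controls, and it fell by 1.34 (SE 0.18, adjusted p = 0.0072). ACOT8, a peroxisomal thioesterase, fell by 0.53 (adjusted p = 0.030), a call lost under the deposited scaling (adjusted p = 0.070).

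Of 5 ketone body genes in liver, BDH2 rose and AACS fell. BDH2, a cytosolic hydroxybutyrate dehydrogenase, averaged 2106 ± 179 with heat and 1238 ± 30.6 in controls (difference 0.61, adjusted p = 0.017). AACS, which makes acetoacetyl-CoA for lipid synthesis, averaged 158 ± 26.8 with heat and 345 ± 138 in controls (difference -1.03, adjusted p = 0.043), and was not called without the filter on low values (adjusted p = 0.054).

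Of 15 genes of fatty acid supply and lipolysis in liver, 2 rose and 1 fell. LIPC, hepatic lipase, averaged 819 ± 287 with heat and 235 ± 73.8 in controls (difference 1.62, SE 0.30, adjusted p = 0.016). CD36, a fatty acid transporter, averaged 5226 ± 744 with heat and 3125 ± 221 in controls (difference 0.61, adjusted p = 0.018), and was not called in 1 model over 18 arrays (adjusted p = 0.21). SLC27A4, another transporter, fell by 0.52 (adjusted p = 0.043), a call lost under the deposited scaling (adjusted p = 0.11).

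The 31 tested PPAR and PGC-1 partners had 4 rises and 3 falls in liver, with a median of -0.11. SIRT1, a deacetylase that acts on PGC-1 alpha, averaged 476 ± 39.9 with heat and 217 ± 20.4 in controls (difference 1.01, SE 0.13, adjusted p = 0.0061). HNF4A, a liver nuclear receptor coactivated by PGC-1 alpha, averaged 772 ± 90.9 with heat and 1258 ± 43.9 in controls (difference -0.84, SE 0.13, adjusted p = 0.010). PRKAB2, a subunit of the AMP-activated kinase, fell by 0.51 (adjusted p = 0.024). The other calls, named after their values were seen, were rises of LPIN2 (0.70), FOXO3 (0.68) and FOXO1 (0.49) and a fall of PPRC1 (-0.56), which belongs to the PGC-1 family. Left-out arrays never ended the calls of HADHB, CROT, ACSBG2, SIRT1 and HNF4A, and each of the other named pathway genes in liver lost its call in at least 2 of 6 fits.

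In muscle, none of the 85 tested pathway genes was called, with 16 (18.8%) at an unadjusted p under 0.05, against 3081 of all 19220. In brain, 2 of 77 rose and 6 fell, against the 11.9% called over all. At an unadjusted p under 0.05, 20 of the 77 (26.0%) passed in brain, against 31.9% of all. The brain falls included FABP7, the brain fatty acid binding protein, which averaged 5529 ± 125 with heat and 7652 ± 425 in controls (difference -0.47, SE 0.070, adjusted p = 0.019). SLC27A4 (-0.46, adjusted p = 0.036) and ACOT8 (-0.49, adjusted p = 0.032) fell in brain as they did in liver. ACSL6, a synthetase of neurons, fell by 0.41 (adjusted p = 0.033), and ACADS, the short-chain dehydrogenase, by 0.37 (adjusted p = 0.046). NCOA1, a nuclear receptor coactivator, fell by 0.50 (adjusted p = 0.036). The peroxisomal transporter ABCD3 rose by 0.43 (adjusted p = 0.046) and GABPA, a regulator of mitochondrial genes, by 0.42 (adjusted p = 0.047). Without brain heat 1, 7 of these 8 were called again, with FABP7 at -0.47 (adjusted p = 0.0013), and GABPA was not (0.36, adjusted p = 0.064). The brain count of 8 was 15 without brain heat 1, and it was 0 without control 1, control 3 or heat 2, 1 without control 2 and 4 without heat 3.

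**Figure D4:**
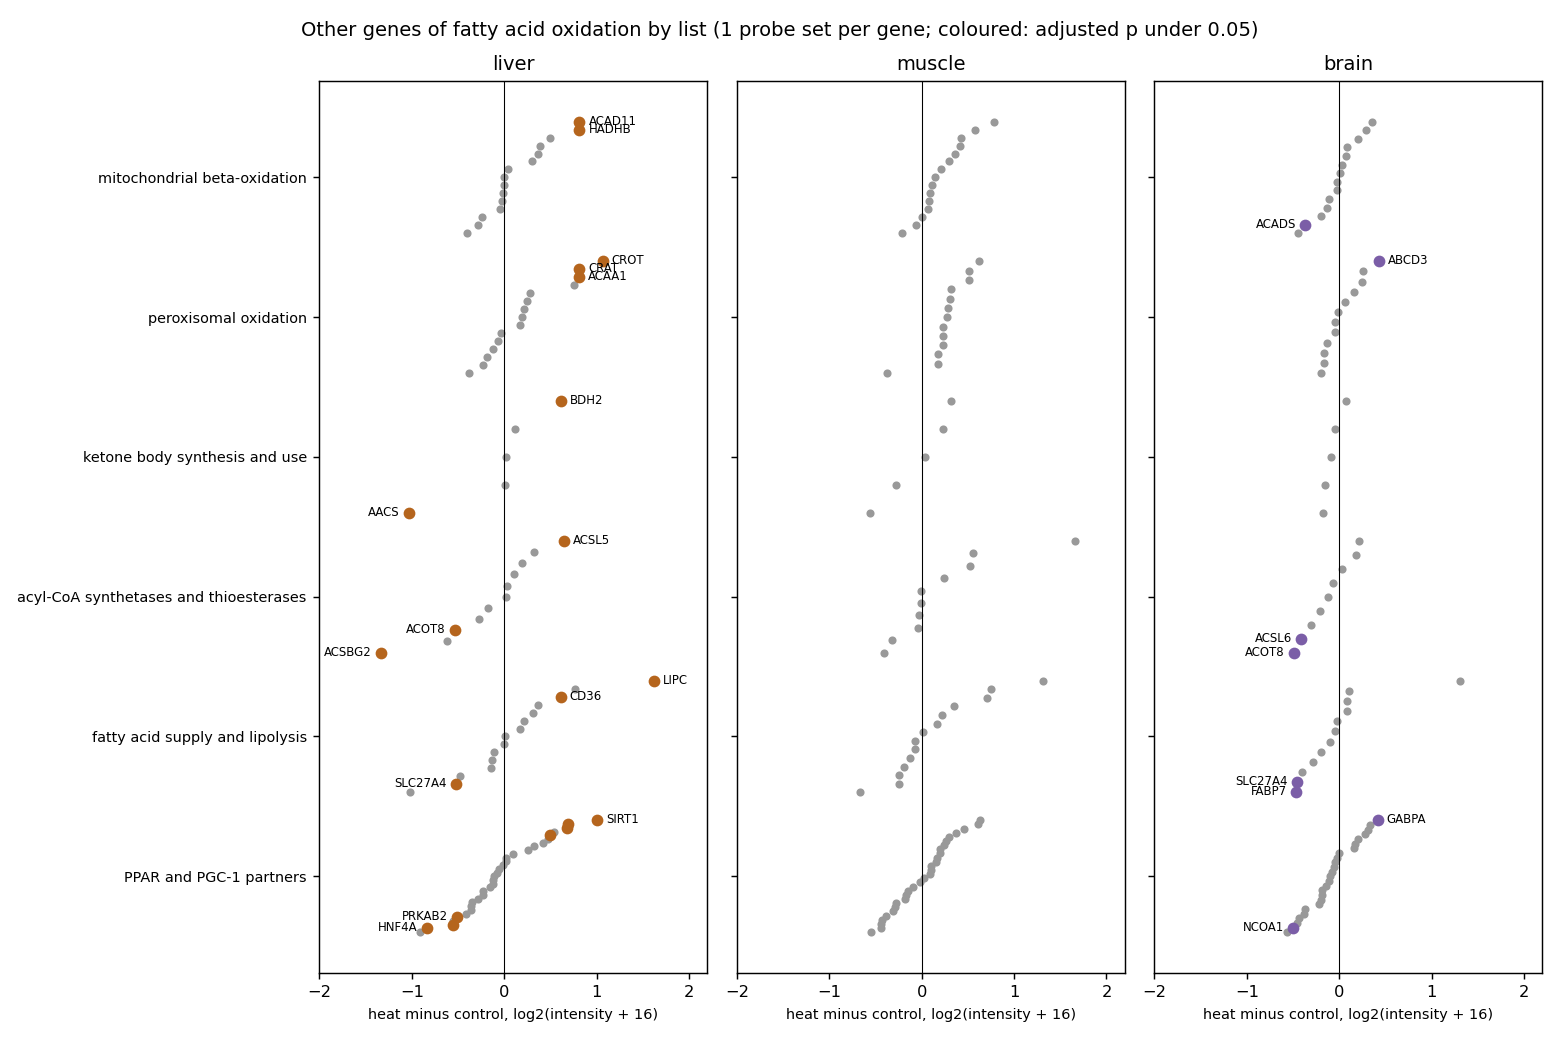
Heat minus control on the log2(intensity + 16) scale for the other pathway genes by list in liver, muscle and brain, 1 point per gene, coloured where the adjusted p is under 0.05. In liver the 20 coloured points run from ACSBG2 at -1.34 to LIPC at 1.62, and in muscle no point is coloured.

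The genes whose levels over the 18 arrays were most like those of CPT1A, PPARGC1A and ECI2 were found by Pearson's r of log2 values, over arrays that share tissue and heat, so r is a description. For ECI2 they were CROT (r = 0.975), SSU72 (0.971), CREG1 (0.965) and SGMS1 (0.962). CROT averaged 4608 in heated and 1995 in control liver, 1760 in heated and 1234 in control muscle, and 699.9 in heated and 583 in control brain. For CPT1A they were INTS6 (0.958), VPS33B (0.955), THOC2 (0.948) and LIPML5 (0.943). The CPT1A probe set used was at background on all muscle arrays and on most brain and liver control arrays. These r values thus rest in part on background readings. For PPARGC1A they were ATP5G1 (0.935), MAP1LC3A (0.905), TCP11X2 (0.874) and CPED1 (0.869). CPED1 averaged 265 in heated and 86.5 in control liver, 213 in heated and 181 in control muscle, and 72.5 in heated and 61.3 in control brain.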

How the data were processed

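RNA of liver, leg muscle and brain was measured on 18 Affymetrix arrays, 3 per group. The authors deposited intensities, not log values, with 1 number for each probe set of an array. Biotinylated cRNA was made from total RNA, per the labels' protocols. GCOS 1.4 is named in the submitters' processing notes, and how probes were summarised, background-corrected and scaled was not stated in the sources used here. Probe sets were named from the platform annotation: of 38535, 96 controls were left out, and of the rest 27168 have 1 symbol, 177 several and 11094 none.

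The log2 of intensity + 16 was used throughout. Deposited scaling stayed in place in a tissue whose arrays had 2% trimmed means within 10% of each other (highest over lowest 1.07 in brain and 1.04 in muscle). Liver (1.12) was quantile normalized. The filter kept probe sets at or above the median probe set of the tissue (mean intensity 83.2 in liver, 87.0 in muscle and 97.2 in brain), which left 19220 each. Heat was compared with control by limma 3.58.1 in R 4.3.3 (moderated two-sided test with intensity trend, Benjamini-Hochberg over all probe sets tested, threshold 0.05). Tissue contrasts and differences between heat effects came from 1 model of 6 group means. The steps were tested on simulated data. Probe sets of a gene were kept apart, and pathway genes took their tested probe set with the highest mean. The text names all 12 probe sets, up to 3 called genes with the smallest p per list and tissue, and the 4 genes most like CPT1A, PPARGC1A and ECI2. The genes and lists were chosen with earlier results of these data known. Same-numbered heat and control arrays did not deviate together in every pair (r = -0.07, -0.07 and -0.02 in brain, 0.12, 0.33 and -0.08 in liver, -0.42, 0.03 and -0.11 in muscle), so the numbers were not used as pairs there. Between tissues, every pair correlated above 0.1 only for the liver and muscle controls (r = 0.43, 0.19 and 0.20), where the replicate block changed no call. The number of arrays limits the precision.

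The alternatives tried were no filter, no intensity trend, pseudocounts of 1 and 64, other scalings, other sets of samples in the model, a replicate block, the mean of a gene's probe sets, and leaving out each array. Estimating the spread within each tissue was added after seeing the data.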

Additional observations from a re-analysis of the deposited data

Results flagged for a closer look

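Leaving out CPT1A in liver minus brain, whose brain arrays were mostly at background, the heat difference itself differed between tissues in 3 tests. In liver minus brain, the difference of differences was 2.06 for PPARGC1A (brighter probe set, SE 0.36, adjusted p = 0.010) and 1.42 for ECI2 (SE 0.22, adjusted p = 0.0059) in the limma model over 18 arrays. In liver minus muscle it was 1.75 for PPARGC1A (brighter probe set, SE 0.36, adjusted p = 0.029). On both genes every liver heat array was above every liver control. With the spread estimated within each tissue, an alternative chosen after seeing the data, the calls held (adjusted p = 0.0048 for PPARGC1A and 0.0039 for ECI2 in liver minus brain, and 0.039 for PPARGC1A in liver minus muscle). The call of PPARGC1A in liver minus muscle was lost in a model of the 2 tissues (adjusted p = 0.11) and in 6 of 18 fits that left out 1 array. The dimmer PPARGC1A probe set was called in neither contrast (0.65, adjusted p = 0.25 in liver minus brain, and 0.70, adjusted p = 0.29 in liver minus muscle).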

How the results depend on the processing

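Pooled over all results, unheated tissue contrasts included, the alternatives changed few calls outside single arrays. Heat calls of pathway genes in brain were lost more often. These losses ran from 1 of 8 refits that kept every array for FABP7 and ACOT8 to 4 of 8 for ABCD3. Over the alternatives that kept every array, 513 of 545 refits of called results kept their call and direction and 32 lost the call. For uncalled results, 377 of 387 kept side and direction, 9 gained a call, and 1 changed sign, the dimmer ACSL1 probe set in liver minus muscle (-0.030 with a pseudocount of 1). With 1 array left out, 582 of 690 refits of called results kept the call and 108 lost it. For uncalled results 566 of 588 stayed, 6 gained a call and 16 changed sign.

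Counts that moved by over 1.5 times were these, and the cause was not tested. The 1 call of liver minus muscle became 2 with a pseudocount of 64, 2 without the filter and 0 in a model of the 2 tissues. The call added by the pseudocount of 64 was the brightest CPT1A probe set, which was at background on every muscle array. In 1 model over 18 arrays, brain members called numbered 1 and muscle members 3, against 0 each, the other pathway genes numbered 2 in brain, against 8, and 8 in muscle (4 up and 4 down), against 0, and in liver 12 fell, against 7. With the replicate block, pathway genes called in brain numbered 1, against 8. The block otherwise kept the counts within 1.5 times, with 9 member probe sets called in liver (both PPARA additions, adjusted p = 0.047 and 0.026).

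Leaving out each array gave 3 to 7 member calls in liver, 0 to 0 in muscle and 0 to 1 in brain, and 6 to 19, 0 to 1 and 0 to 15 other pathway calls. Counts were 3 to 3 for liver minus brain, 0 to 2 for liver minus muscle and 0 to 1 for muscle minus brain. Unheated counts were 7 to 8, 7 to 9 and 7 to 7. Signs changed for the brighter PPARGC1A probe set (-0.27 to 0.073) and ECI2 (-0.32 to 0.064) in brain, and the second PPARA probe set in muscle (-0.37 to 0.28). Signs of the heat difference between tissues changed in liver minus muscle for ACSL1 (-0.21 to 0.25 and -0.55 to 0.064), and in muscle minus brain for ECI1 (-0.015 to 0.26), the second PPARA probe set (-0.63 to 0.020) and the dimmer PPARGC1A probe set (-0.25 to 0.097). The brighter PPARGC1A probe set in unheated liver minus brain ran from -0.56 to 0.042. Signal over background limits CPT1A in all tissues, and in heated liver its brightest probe set alone was above background on every array.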

Other observations

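Some pathway genes in leg muscle had large differences that did not pass the test, and they are named here after their values were seen. Only rises are named, while 1 model over 18 arrays called 4 muscle pathway genes higher and 4 lower. ACSL5, a long-chain acyl-CoA synthetase, averaged 234 ± 118 on the muscle heat arrays and 55.7 ± 4.12 on the controls (SD, n = 3 arrays each; difference 1.66, SE 0.38, limma adjusted p = 0.13), with a control mean under the filter. That control mean lies within the muscle range of the highest bacterial control (41.3 to 60.6), so the ACSL5 difference rests on control values near background. CD36, the fatty acid transporter, averaged 4385 ± 476 with heat and 2640 ± 609.7 in controls (difference 0.75, SE 0.19, adjusted p = 0.15). ETFDH, which passes electrons from acyl-CoA dehydrogenases to the respiratory chain, averaged 1281 ± 91.7 with heat and 789 ± 380.1 in controls (difference 0.78, SE 0.29, adjusted p = 0.26). Without muscle heat 3, the array high in hepatocyte markers, the differences were 1.39 for ACSL5 (adjusted p = 0.25), 0.80 for CD36 (adjusted p = 0.26) and 0.73 for ETFDH (adjusted p = 0.44), fits added after seeing the data. The spread among the 3 controls of ETFDH was larger than that among its heat arrays.

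RNA integrity was read from EEF1A as the 3' over the 5' probe intensity, which was 1.27 to 1.39 on the liver heat arrays and 1.21 to 1.43 on the liver controls. It was 1.58 to 1.89 on the muscle heat arrays and 1.53 to 2.30 on the muscle controls, where muscle control 3 was highest. On that array the brighter ACSL1 probe set read 149, the lowest of the muscle arrays. Its heat difference without muscle control 3 was 1.21 (adjusted p = 0.32). By actin the ratio was 2.36 to 3.11 on the muscle heat arrays and 2.004 to 3.43 on the muscle controls, again highest on control 3. The part of RNA integrity in the muscle values was not tested.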
